A study of Mus musculus with 6 samples.

Results

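The genes described here are 10 enzymes and regulators of de novo lipogenesis, the making of fatty acids (FA) from citrate and acetate. They were *Slc25a1*, *Acly*, *Acss2*, *Me1*, *Acaca*, *Acacb*, *Fasn*, *Thrsp*, *Srebf1* and *Mlxipl*, chosen by name and matched by Ensembl identifier to 10 of the 46517 genes in the count files. All 10 were among the 14967 genes kept for testing, those with a level of 1 cpm, the count scaled to library size, or more in at least 1 sample. The tissue was inguinal subcutaneous white adipose tissue (IngWAT), and RNA-seq covered 3 samples of *Hdac3* floxed mice and 3 of H3atKO mice. Both genotypes carried the floxed *Hdac3* gene, were C57Bl6 mice of 5 to 9 months on chow diet and were kept in standard housing. H3atKO mice also carried the transgene of B6:FVB-Tg(Adipoq-cre)1Evdr/J, whose Cre recombinase is driven by the adiponectin promoter, so that adipocytes are the cells expected to lose *Hdac3* while the other cells of the tissue keep it. Each sample was a pool of RNA from 2 or 3 mice (500 ng), and the sources used here do not say which animals went into which pool, so that p-values measure the spread between these pools.

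De novo lipogenesis starts with citrate, which the carrier encoded by *Slc25a1* exports from mitochondria and ATP citrate lyase (*Acly*) cleaves to acetyl-CoA. Acetate is a second source of cytosolic acetyl-CoA, through the synthetase encoded by *Acss2*. Acetyl-CoA carboxylases (*Acaca*, *Acacb*) turn acetyl-CoA into malonyl-CoA, and FA synthase (*Fasn*) joins these units into palmitate with NADPH, part of which comes from malic enzyme (*Me1*). *Thrsp* encodes Spot 14, a small protein of lipogenic tissues that promotes FA synthesis. SREBP1 (*Srebf1*), activated by insulin, and ChREBP (*Mlxipl*), activated by glucose metabolites, are the transcription factors best known for driving these genes, and in mice white fat is among the tissues where the pathway runs.

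In H3atKO samples 4 of the enzymes were more highly expressed, whereas the gene count of ChREBP, which pools its transcripts, was lower. *Me1* rose 15.2-fold, *Acss2* 7.91-fold, *Fasn* 5.33-fold and *Acaca* 3.38-fold, and *Mlxipl* fell to 0.224 times its floxed level (limma voom, Benjamini-Hochberg adjusted p under 0.05 over all tested genes). Thus 4 of the 10 genes were upregulated and 1 was down-regulated, against 9.42% of all tested genes upregulated and 7.07% down-regulated. After a GC correction, which removes the dependence of fold changes on GC content, 7 were upregulated and 0 down-regulated, with *Mlxipl* at a log2 fold change of -0.50 (adjusted p = 0.193). The other 5 did not pass without the correction, with log2 fold changes of 1.51 for *Thrsp*, 1.16 for *Acly*, 0.57 for *Acacb*, 0.32 for *Slc25a1* and -2.33 for *Srebf1*. The median log2 fold change of the 10 genes was 1.34, and that of all tested genes was -0.09.

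**Figure D1:**
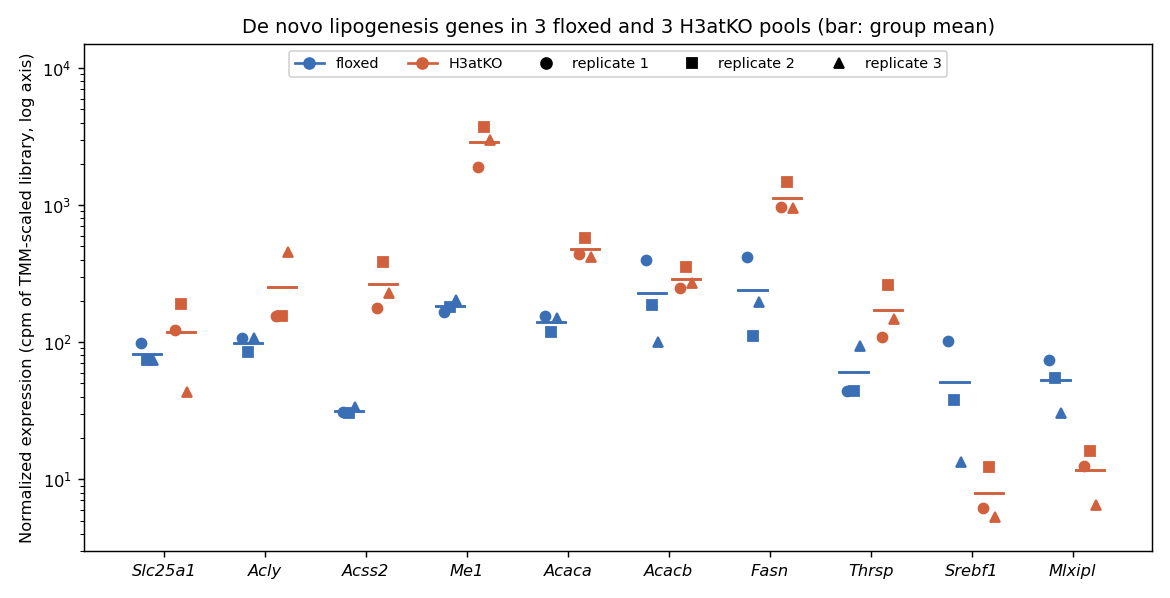
Normalized expression in cpm of the TMM-scaled library (log axis) of the 10 lipogenic genes in floxed (blue) and H3atKO (orange) samples, where each symbol is 1 pooled sample and each bar a group mean. *Me1* lies between 165 and 202 cpm in floxed and between 1898 and 3730 cpm in H3atKO samples, while *Srebf1* and *Mlxipl* are lower in every H3atKO sample and *Slc25a1* and *Acacb* overlap between genotypes.

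The samples had 23865507 to 35200685 counts on genes. A floor of 3 counts, which allows for counting error only, equals 0.0852 to 0.126 cpm. *Hdac3* itself had 3139, 3339 and 2709 counts in floxed and 666, 413 and 204 counts in H3atKO replicates 1 to 3 (log2 fold change -1.83, adjusted p = 0.0213 from limma). Transcripts of the mitochondrial genome took 9.13% ± 3.26 of the counts in floxed and 32.0% ± 4.49 in H3atKO samples (SD, n = 3 each). The fold change of a gene also followed the GC content of its longest transcript, with a median log2 fold change of 1.13 in the lowest and -2.19 in the highest decile of GC content, so that in these libraries an effect of GC content and one of genotype cannot be told apart. A second set of values is therefore given, from a GC correction that subtracted each sample's own curve on GC content. Samples with the same replicate number deviated together from their group means (r = 0.510, 0.389 and 0.264 over genes for numbers 1 to 3). The labels do not say what a shared number marks, and correlations between samples of different numbers are not given here. For the 10 lipogenic genes, values with the replicate number as a block are given where they change a call. With the block, 24.8% of all tested genes were upregulated and 28.7% were down-regulated. These shares were 5.39% and 3.11% after the GC correction, and with the block and the correction together 13.0% and 9.87%. In bulk tissue, fewer cells of a type and less RNA per cell cannot be told apart.

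The sequences just upstream of the annotated starts of 5 of the genes are shown because these genes encode the source of NADPH (*Me1*), the enzyme that makes palmitate (*Fasn*), the citrate carrier (*Slc25a1*) or the transcription factors. They were taken from RefSeq on GRCm38.p6, are written 5′ to 3′ in the direction of the gene, and end at the base before the transcript. Capitals mark matches, on either strand, to an NF-Y box (CCAAT), an Sp1 box (GGGCGG), an E-box (CACGTG) or a sterol response element (TCACNCCAC).
*Me1*, chr9:86695954-86696164, minus strand: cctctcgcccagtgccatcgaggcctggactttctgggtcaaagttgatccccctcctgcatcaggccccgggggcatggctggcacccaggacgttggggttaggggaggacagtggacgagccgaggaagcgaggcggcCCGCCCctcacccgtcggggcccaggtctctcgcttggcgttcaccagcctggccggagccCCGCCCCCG
*Fasn*, chr11:120824548-120824797, minus strand: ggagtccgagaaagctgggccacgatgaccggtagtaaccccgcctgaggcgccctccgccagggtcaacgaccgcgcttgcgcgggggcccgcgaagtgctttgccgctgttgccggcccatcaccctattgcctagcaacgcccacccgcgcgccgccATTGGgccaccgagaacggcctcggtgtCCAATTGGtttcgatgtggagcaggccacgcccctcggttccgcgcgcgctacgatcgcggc
*Slc25a1*, chr16:17928220-17928469, minus strand: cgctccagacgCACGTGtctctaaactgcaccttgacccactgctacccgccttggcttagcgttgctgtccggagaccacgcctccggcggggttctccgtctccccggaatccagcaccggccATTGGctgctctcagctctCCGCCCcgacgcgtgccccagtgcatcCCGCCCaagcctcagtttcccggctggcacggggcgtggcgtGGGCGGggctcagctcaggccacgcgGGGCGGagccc
*Srebf1*, chr11:60222582-60222831, minus strand: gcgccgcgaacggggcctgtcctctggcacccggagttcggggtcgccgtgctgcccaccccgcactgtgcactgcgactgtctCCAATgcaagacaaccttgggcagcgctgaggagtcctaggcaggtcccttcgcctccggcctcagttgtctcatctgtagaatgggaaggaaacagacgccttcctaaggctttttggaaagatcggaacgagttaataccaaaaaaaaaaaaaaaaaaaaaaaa
*Mlxipl*, chr5:135089640-135089889, plus strand: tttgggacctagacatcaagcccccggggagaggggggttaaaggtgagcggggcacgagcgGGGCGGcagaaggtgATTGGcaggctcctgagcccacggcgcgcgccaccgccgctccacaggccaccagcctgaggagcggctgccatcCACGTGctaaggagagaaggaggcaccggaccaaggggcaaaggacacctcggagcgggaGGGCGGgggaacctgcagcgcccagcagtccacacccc
The *Me1* stretch holds 211 bases, having been ended where the GENCODE transcript begins, and the others hold 250. *Me1*, *Srebf1* and *Mlxipl* have further start sites, which are not printed. All 10 genes had at least 1 window in the RefSeq table, 14 windows in all, each read over its 250 upstream bases. An NF-Y box was found in 9 of the 14 windows, against 33.8% of all 32851 windows of that length in the mouse table. In the *Acss2* and *Thrsp* windows its matches lie past the start of the GENCODE transcript. An Sp1 box was in 7 of the 14 (32.7% of all windows), an E-box in 2 (6.02%) and a sterol response element in 1 (1.05%). In the *Fasn* stretch 2 NF-Y boxes on opposite strands overlap in 1 run of 8 capitals, and the last 3 capitals of the *Me1* stretch begin an Sp1 box that continues into the transcript. The E-box is in the printed *Slc25a1* and *Mlxipl* stretches, and the match to the sterol element lies in another *Mlxipl* window, which is not printed. Such matches describe letters only. Of the 10 genes, 4 lie on chromosome 11 (*Srebf1*, *Acaca*, *Acly* and *Fasn*), where 8.04% of the tested genes are.

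To follow the pathway from its substrate, the exporter of citrate and the producers of acetyl-CoA were examined first. *Slc25a1* (ENSMUSG00000003528; chromosome 16, 17925223 to 17928219) had 98.0, 74.1 and 73.6 cpm in floxed replicates 1 to 3 and 123, 191 and 43.4 cpm in H3atKO replicates 1 to 3. H3atKO replicate 3 was the lowest and H3atKO replicate 2 the highest of all samples, so that the genotypes overlapped. The log2 fold change of 0.32 (standard error 0.51, 95% interval -0.87 to 1.51, adjusted p = 0.638 from limma) was smaller than the spread between pools and became -0.53 with library sizes alone and -0.17 without H3atKO replicate 2. *Slc25a1* is a gene of high GC content (59.1%), in the decile with a median log2 fold change of -2.19. Corrected for GC content, it had a log2 fold change of 2.50 with a standard error of 0.49 (adjusted p = 0.0327), and every H3atKO sample was then above every floxed sample.

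*Acly* (ENSMUSG00000020917; chromosome 11, 100476353 to 100528000) had 107, 84.6 and 107 cpm in floxed and 155, 154 and 453 cpm in H3atKO replicates 1 to 3. All H3atKO samples were above all floxed samples, but replicate 3 stood far above the other two. limma gave a log2 fold change of 1.16 with a standard error of 0.43 (adjusted p = 0.0853), and of 0.65 (adjusted p = 0.170) without H3atKO replicate 3. With the replicate block it was 1.15 (adjusted p = 0.0281). The GC-corrected value was 1.87 (adjusted p = 0.0728), or 1.86 (adjusted p = 0.0169) when the block was added.

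*Acss2* (ENSMUSG00000027605; chromosome 2, 155517948 to 155585724), whose product makes acetyl-CoA from acetate, had 30.8, 30.6 and 33.6 cpm in floxed and 178, 385 and 228 cpm in H3atKO replicates 1 to 3. The floxed samples were nearly level and the H3atKO samples were all several-fold higher. The change of 2.98 on the log2 scale (standard error 0.32, 95% interval 2.24 to 3.72) passed with limma (adjusted p = 0.00867), as did the GC-corrected 2.84 (adjusted p = 0.0105). Leaving out 1 sample at a time gave 2.62 to 3.22, and the adjusted p was above 0.05 only without floxed replicate 2 (0.0516). Exons of *Acss2* share 197 bases with *Ggt7*, 395 with *Gss* and 335 with *Acss2os*, all on the opposite strand. The library kit kept the strand, but whether counting used it is not given in the sources used here, and if it did not, reads there cannot be told apart. Within a sample, the log2 ratio of *Acly* to *Acss2* (counts per kilobase of exon) was 2.74, 2.41 and 2.61 in floxed replicates 1 to 3, against 0.75, -0.37 and 1.93 in the H3atKO ones. The genotypes did not overlap and the mean fell by 1.82 (exact permutation, two-sided, p = 0.1, below which 3 samples against 3 cannot go, and 0.2 after adjustment over 4 ratios). With GC-corrected values the difference was -0.97 (exact permutation p = 0.4).

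Without the GC correction, *Me1* (ENSMUSG00000032418; chromosome 9, 86581371 to 86695953), the cytosolic malic enzyme that yields NADPH, had the highest fold change of the 10 genes, and with it *Fasn* did. *Me1* had 165, 182 and 202 cpm in floxed and 1898, 3730 and 2989 cpm in H3atKO replicates 1 to 3. The lowest H3atKO sample was far above the highest floxed sample. The mean went from 183 ± 18.2 to 2872 ± 921 cpm (SD, n = 3 each). This was 3.93 on the log2 scale with a standard error of 0.30 and a 95% interval of 3.24 to 4.62 (adjusted p = 0.00615, limma). Differences within replicate numbers were 3.52, 4.36 and 3.89 on the log2 scale, and the GC-corrected value was 3.41 (adjusted p = 0.00751). When single samples were dropped it was between 3.66 and 4.18, with an adjusted p above 0.05 only without floxed replicate 2 (0.0508). Per kilobase of exon, *Me1* moved from rank 546 to rank 28 of the tested genes in mean level.

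The carboxylases are encoded by *Acaca*, whose product is cytosolic and feeds FA synthesis, and *Acacb*, whose product sits at the mitochondrial surface and restrains FA import into mitochondria. *Acaca* (ENSMUSG00000020532; chromosome 11, 84129672 to 84401651) had 154, 118 and 151 cpm in floxed and 442, 576 and 420 cpm in H3atKO replicates 1 to 3, with no overlap. Its log2 fold change of 1.76 had a standard error of 0.24 (adjusted p = 0.0126, limma), and the GC-corrected value was 1.78 (adjusted p = 0.0117). Its GC content of 49.1% lies in a decile with a median log2 fold change of 0.11. The adjusted p was 0.0525 without H3atKO replicate 3 and 0.0805 without floxed replicate 2, where the log2 fold changes were 1.85 and 1.63.

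*Acacb* (ENSMUSG00000042010; chromosome 5, 114146535 to 114250761) had 396, 186 and 100 cpm in floxed and 250, 353 and 271 cpm in H3atKO replicates 1 to 3. The floxed samples spread around the H3atKO samples. A log2 fold change of 0.57 resulted (standard error 0.47, 95% interval -0.54 to 1.67, adjusted p = 0.374, limma), which was -0.29 with library sizes alone. Corrected for GC content it was 2.28 (standard error 0.30, adjusted p = 0.0137). The log2 ratio of *Acaca* to *Acacb* per kilobase of exon was -2.19, -1.48 and -0.23 in floxed replicates 1 to 3, against -0.01, -0.12 and -0.19 in the H3atKO ones. The H3atKO samples were close to each other and just above floxed replicate 3, with a mean difference of 1.20 on the log2 scale (two-sided exact permutation test, p = 0.1, or 0.2 after adjustment over 4 ratios). This difference turned to -0.49 after the GC correction (exact permutation p = 0.3).

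*Fasn* (ENSMUSG00000025153; chromosome 11, 120805846 to 120824547), the enzyme that assembles palmitate, had 420, 111 and 195 cpm in floxed and 975, 1484 and 947 cpm in H3atKO replicates 1 to 3. Floxed replicate 1 had the highest level of its group and still less than every H3atKO sample. The differences within replicate numbers were 1.22, 3.75 and 2.28 on the log2 scale, the first being the smallest. Over all samples limma gave a log2 fold change of 2.41 with a standard error of 0.48 (adjusted p = 0.0271). With a GC content of 57.9%, *Fasn* is in the highest decile, whose median was -2.19, and its GC-corrected value was 4.38 (standard error 0.49, adjusted p = 0.0116). Single samples left out moved the log2 fold change to between 1.96 and 2.91. The adjusted p was 0.0307 without floxed replicate 1 and 0.0146 without floxed replicate 3, and 0.104, 0.0656, 0.0626 and 0.0945 without floxed replicate 2 and H3atKO replicates 1 to 3. The log2 ratio of *Fasn* to *Acaca* per kilobase was 2.09, 0.55 and 1.01 in floxed replicates 1 to 3, against 1.78, 2.01 and 1.81 in the H3atKO ones. The genotypes overlapped in this ratio, with a mean difference of 0.65 (exact permutation p = 0.4, or 0.533 after adjustment). From GC-corrected values it was 2.60 (exact permutation p = 0.1).

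*Thrsp* (ENSMUSG00000035686; chromosome 7, 97412938 to 97417730) had 43.8, 44.1 and 93.7 cpm in floxed and 108, 261 and 147 cpm in H3atKO replicates 1 to 3. The genotypes did not overlap, although floxed replicate 3 came close to H3atKO replicate 1. The log2 fold change of 1.51 (standard error 0.43) narrowly missed the threshold with limma (adjusted p = 0.0509) and passed it with edgeR (adjusted p = 0.0408), with DESeq2 (adjusted p = 0.00708) and with the replicate block (adjusted p = 0.0185). Its GC-corrected value was 2.18 (adjusted p = 0.0473). Without floxed replicate 3 the log2 fold change was 1.88 (adjusted p = 0.0105), the only fit with a sample left out in which *Thrsp* passed.

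The transcription factors had lower values in H3atKO samples, past the threshold for *Mlxipl* only. *Mlxipl* (ENSMUSG00000005373; chromosome 5, 135089890 to 135138382), encoding ChREBP, had 74.2, 54.5 and 30.4 cpm in floxed and 12.5, 16.0 and 6.51 cpm in H3atKO replicates 1 to 3. Its gene counts pool the transcripts of its different start sites, so that isoforms of ChREBP cannot be told apart. Every H3atKO sample was below every floxed sample. It fell by 2.16 on the log2 scale (log2 fold change -2.16, standard error 0.49, 95% interval -3.30 to -1.01, adjusted p = 0.0343, limma), with a value of -2.19 with the replicate block (adjusted p = 0.00294). Its GC content is 56.6%, in a decile with a median log2 fold change of -1.58, and after the GC correction the value was -0.50 (standard error 0.23, adjusted p = 0.193) and the genotypes overlapped. Without single samples the log2 fold change lay between -2.51 and -1.82, with an adjusted p of 0.00676 without floxed replicate 3 and of 0.0617 to 0.124 without each of the others.

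*Srebf1* (ENSMUSG00000020538; chromosome 11, 60199089 to 60222581), whose gene counts pool the transcripts of its different start sites, had 102, 38.1 and 13.3 cpm in floxed and 6.14, 12.3 and 5.31 cpm in H3atKO replicates 1 to 3. All H3atKO samples were below all floxed samples, but H3atKO replicate 2 nearly reached floxed replicate 3, and the floxed samples differed from each other more than the lowest of them did from the H3atKO samples. The resulting log2 fold change of -2.33 (standard error 0.90, 95% interval -4.44 to -0.22) missed the threshold with limma (adjusted p = 0.0921). It was -2.69 with edgeR (adjusted p = 0.0344), -2.61 with DESeq2 (adjusted p = 0.00123) and -2.54 with the replicate block (adjusted p = 0.0136). With a GC content of 58.4% it lies in the decile whose median was -2.19, and the correction left a log2 fold change of -0.29 with a standard error of 0.43 (adjusted p = 0.670). The log2 fold change was -3.06 (adjusted p = 0.00866) without floxed replicate 3, and the adjusted p was between 0.117 and 0.252 without each of the others. *Srebf1* exons share 109 bases with *Rai1* and *Mlxipl* exons 235 bases with *Gm43500*, both on the opposite strand. The log2 ratio of *Mlxipl* to *Srebf1* ranged from -0.43 to 1.22 in floxed and from 0.32 to 1.05 in H3atKO samples, with a mean difference of 0.15 (exact permutation p = 1).

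**Figure D2:**
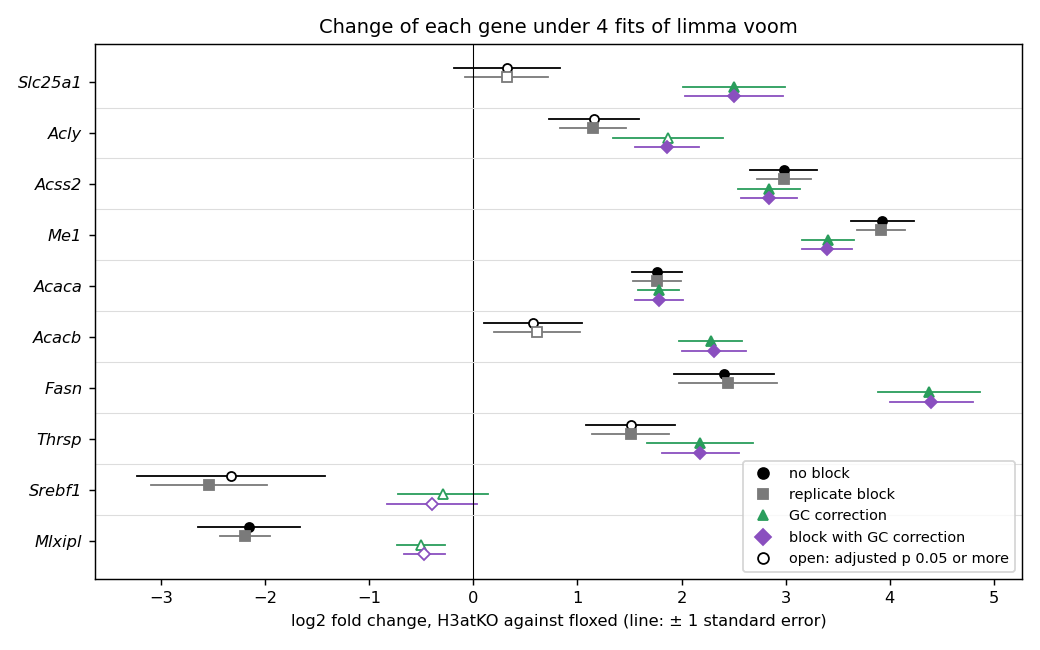
Log2 fold change of each gene, H3atKO against floxed, with 1 standard error on each side, from limma voom without a block (black circles), with the replicate block (grey squares), with the GC correction (green triangles) and with both (purple diamonds), where filled symbols have an adjusted p under 0.05. With the correction *Acaca* and *Acss2* hardly move, *Fasn*, *Acacb* and *Slc25a1* move up by 1.71 to 2.18, and *Srebf1* and *Mlxipl* move to -0.29 and -0.50.

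The genes thus differed in how much their values depended on the GC correction. It moved *Me1*, *Acss2* and *Acaca*, with a GC content between 45.1% and 49.1%, by -0.52, -0.14 and 0.02 on the log2 scale. The values of *Fasn*, *Slc25a1* and *Acacb*, with 56.7% to 59.1%, moved by 1.97, 2.18 and 1.71. Those of *Mlxipl* and *Srebf1* moved towards 0, by 1.66 and 2.04. In the corrected fit 7 of the 10 genes passed as upregulated, and 8 when the block was added, that is all except the transcription factors. In both of these fits 0 of the 10 genes were down-regulated by limma at an adjusted or an unadjusted p under 0.05. Without the correction edgeR called 5 genes upregulated and 2 down-regulated (12.8% and 18.4% of all tested genes), and DESeq2 6 and 2 (19.6% and 23.2%). Every H3atKO sample was above every floxed sample for 6 genes and below for 2 before the correction, where 23.3% and 28.5% of all tested genes were so separated. After the correction the numbers were 8 and 0, against 19.7% and 19.3% of all tested genes.

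**Figure D3:**
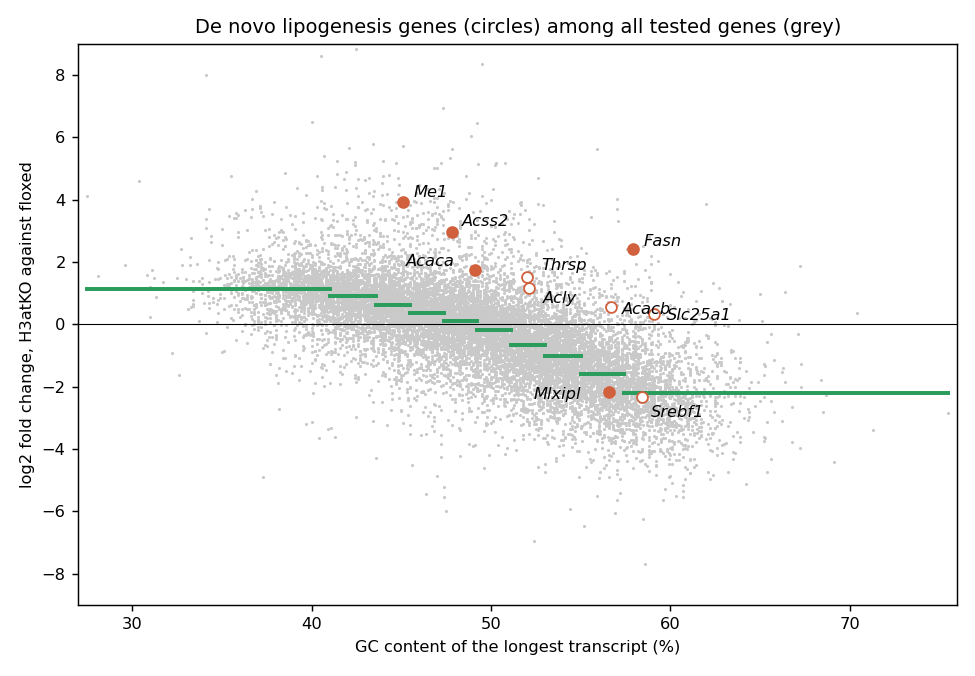
Log2 fold change, H3atKO against floxed, of all tested genes (grey points) against the GC content of the longest transcript in %, with the 10 lipogenic genes as circles (filled, adjusted p under 0.05) and the median of each GC decile as green bars. The decile medians fall from 1.13 to -2.19, *Me1* and *Fasn* lie far above the bar at their GC content, and *Mlxipl* and *Srebf1* lie near theirs.

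Levels were compared between genes per kilobase of annotated exon, in cpm per kilobase. In floxed samples the order was *Me1* (47.5 ± 4.72, SD, n = 3), *Slc25a1* (37.8 ± 6.44), *Thrsp* (27.7 ± 13.1), *Acacb* (23.6 ± 15.8), *Fasn* (22.1 ± 14.6) and *Acly* (18.8 ± 2.44). *Mlxipl* (9.58 ± 3.96), *Srebf1* (9.06 ± 8.09), *Acaca* (8.27 ± 1.17) and *Acss2* (3.12 ± 0.167) followed. The ranges of mean ± SD of neighbours in this order overlapped, except between *Acly* and *Mlxipl* and between *Acaca* and *Acss2*. In H3atKO samples *Me1* led with 746 ± 239 cpm per kilobase, ahead of *Fasn* (104 ± 27.6), *Thrsp* (78.6 ± 36.3), *Slc25a1* (55.1 ± 34.2) and *Acly* (48.2 ± 32.7). *Acacb* (30.2 ± 5.65), *Acaca* (28.1 ± 4.94) and *Acss2* (26.0 ± 10.7) followed, and *Mlxipl* (2.11 ± 0.867) and *Srebf1* (1.41 ± 0.682) came last. In this order *Me1* stood apart from *Fasn*, and *Acss2* from *Mlxipl*, with ranges of mean ± SD that did not overlap, and the other neighbours overlapped. *Fasn* moved from rank 1353 to 284 of the tested genes, *Acss2* from 7639 to 1377, *Mlxipl* from 3235 to 8116 and *Srebf1* from 3419 to 9321. Exon lengths count every annotated exon, so that genes with many transcripts, such as *Acaca* with 17074 bases and *Acss2* with 10163, appear lower than by a single transcript.

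Over the 6 samples, the log2 cpm of *Fasn* was most like that of *Orm1*, *Mrps23*, *Gpam*, *Slc36a2* and *Rrs1* (Pearson's r = 0.979, 0.974, 0.972, 0.970 and 0.970) among 6343 other genes with a mean of at least 4 log2 cpm. *Gpam* encodes the acyltransferase that starts glycerolipid synthesis. The r to *Fasn* was 0.950 for *Acaca*, 0.906 for *Acss2*, 0.893 for *Me1* and 0.780 for *Thrsp*. It was 0.656 for *Acly*, 0.642 for *Acacb* and 0.398 for *Slc25a1*, and negative for *Srebf1* (-0.532) and *Mlxipl* (-0.713). These values describe 6 points that share the 2 genotypes and the GC curves of their libraries. From GC-corrected values the r to *Fasn* of the 7 genes other than the transcription factors was between 0.871 and 0.980.

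The neighbouring genes of the pathway were then examined in 7 lists of 71 genes, of which 68 were tested. Of these 18 were upregulated and 4 down-regulated, with a median log2 fold change of -0.26 that became 0.41 after the GC correction. Under the replicate block the counts were 28 up and 29 down, and under the GC correction 13 up and 1 down. For comparison, limma called 9.42% of all tested genes upregulated and 7.07% down-regulated. With the block these shares were 24.8% and 28.7%, and after the GC correction 5.39% and 3.11%. The same shares stand beside the counts of each list below. In the list of elongation and desaturation of palmitate, 6 of 12 tested genes were upregulated and 1 was down-regulated (median log2 fold change 1.33, or 0.96 after the GC correction, where again 6 were upregulated). *Elovl6*, which elongates palmitate, went up from 29.3 ± 24.3 to 751 ± 432 cpm (SD, n = 3 each), which limma put at 4.76 on the log2 scale (adjusted p = 0.0148). The stearoyl-CoA desaturase genes *Scd2* and *Scd3* had log2 fold changes of 4.13 (adjusted p = 0.0106) and 5.14 (adjusted p = 0.0277). *Elovl1*, which elongates very long chains, had one of -1.81 (adjusted p = 0.0365). Its adjusted p was 0.0558 after the GC correction and 0.028 with the correction and the block. *Scd* genes are close paralogs whose reads can be hard to place, and *Scd3* had a mean of 0.367 cpm in floxed samples against 13.7 cpm in H3atKO samples. *Scd1*, named here after its value was seen, was far more abundant, with means of 28142 cpm in floxed and 54847 cpm in H3atKO samples. Its log2 fold change of 0.99 missed the threshold (adjusted p = 0.0576, limma). It passed with the replicate block (adjusted p = 0.0448) but not after the GC correction (adjusted p = 0.128, or 0.141 with the block).

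In the list for NADPH supply, which also holds other enzymes of the pentose phosphate pathway, 3 of 11 genes were upregulated by limma. These were *Rpe* of the pentose phosphate pathway, *Idh1*, the cytosolic isocitrate dehydrogenase, and *Me2*, the mitochondrial malic enzyme, with log2 fold changes of 1.70, 1.55 and 1.66 (adjusted p = 0.0255, 0.0360 and 0.0215). GC-corrected they were 0.58, 0.86 and 1.08 (adjusted p = 0.163, 0.0622 and 0.05, none under the threshold), and the median of the list went from -0.55 to -0.01. When the block was added to the correction, their adjusted p was 0.12, 0.0276 and 0.0406. *G6pdx*, named here after its value was seen as the entry enzyme of the pentose phosphate pathway, had a log2 fold change of -0.55 (adjusted p = 0.494). With the block 4 genes of this list were upregulated and 4 down-regulated.

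In the list of acetyl-CoA and citrate supply 1 of 7 genes was upregulated, the mitochondrial acetyl-CoA synthetase gene *Acss1* (log2 fold change 1.42, adjusted p = 0.0425, and 2.03 after the GC correction). The median was 0.64, and 4 genes were upregulated and 1 down-regulated with the block. Of 8 tested genes of mitochondrial FA synthesis, a separate pathway that makes the precursor of lipoic acid, 4 were upregulated, among them *Ndufab1*, the acyl carrier protein (1.87 on the log2 scale, adjusted p = 0.0120), *Oxsm* (1.23, adjusted p = 0.0402) and *Cbr4* (0.99, adjusted p = 0.0448). After the GC correction 2 were upregulated, with *Ndufab1* at 1.38 (adjusted p = 0.0118) and *Cbr4* at 0.14 (adjusted p = 0.715). With the block 5 were upregulated and 3 down-regulated.

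Log2 fold changes were negative for 8 of 11 genes around SREBP, against 52.5% of all tested genes. They were so for 7 of 7 in the list of ChREBP partners and carbohydrate-responsive targets. After the GC correction the counts were 6 of 11 and 4 of 7, against 7341 of all 14967 tested genes. Of the 11 genes for SREBP processing, LXR and USF, 2 were upregulated and 1 was down-regulated, with a median log2 fold change of -1.33 that became -0.30 after the GC correction. With the block 3 were upregulated and 8 down-regulated. *Insig1* and *Insig2*, whose products hold SREBP in the endoplasmic reticulum, were the upregulated ones. *Insig1* rose from 66.3 ± 7.63 to 434 ± 167 cpm, or by 2.63 on the log2 scale (adjusted p = 0.0118), with a GC-corrected value of 2.55 (adjusted p = 0.0134). *Insig2* had an uncorrected value of 1.87 (adjusted p = 0.0367) and a GC-corrected one of 1.46 (adjusted p = 0.0982). *Mbtps1*, encoding the protease that makes the first cut of SREBP, had a log2 fold change of -0.96 (adjusted p = 0.0493, or 0.0607 when corrected). With the correction and the block together, the adjusted p was 0.0403 for *Insig2* and 0.035 for *Mbtps1*. Among 7 tested genes that partner or respond to ChREBP, 1 was down-regulated, *Txnip*, an inhibitor of glucose uptake that responds to carbohydrate (2744 ± 728 to 1196 ± 122 cpm, log2 fold change -1.17, adjusted p = 0.0367, and -1.24 after the GC correction). The list had a median of -0.78, or -0.31 after the correction, with 4 down-regulated genes under the block, and *Pklr* had 0 cpm in all samples. In the list of malonyl-CoA control and enzyme cofactors, 2 of 12 genes were upregulated and 1 was down-regulated. *Aasdhppt*, which attaches the cofactor of FA synthase, and *Prkaa2*, a catalytic subunit of AMPK, had log2 fold changes of 1.78 and 1.93 (adjusted p = 0.0245 and 0.0365), and *Prkag1*, another AMPK subunit, one of -1.41 (adjusted p = 0.0497). When corrected for GC content none of these 3 passed (adjusted p = 0.0987, 0.212 and 0.160), and with the block 4 genes of the list were upregulated and 5 down-regulated. With each sample left out, *Elovl6*, *Scd2*, *Insig1* and *Ndufab1* passed in 4 of 6 fits, *Scd3*, *Rpe* and *Aasdhppt* in 2, and each of the other genes named above from the lists as called in 1. *Elovl5*, *Hsd17b12* and *Hacd2* of the elongation list, named here after their values were seen, passed in 5. Their log2 fold changes were 3, 2.76 and 1.67 (limma, adjusted p = 0.0087, 0.00793 and 0.0106).

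**Figure D4:**
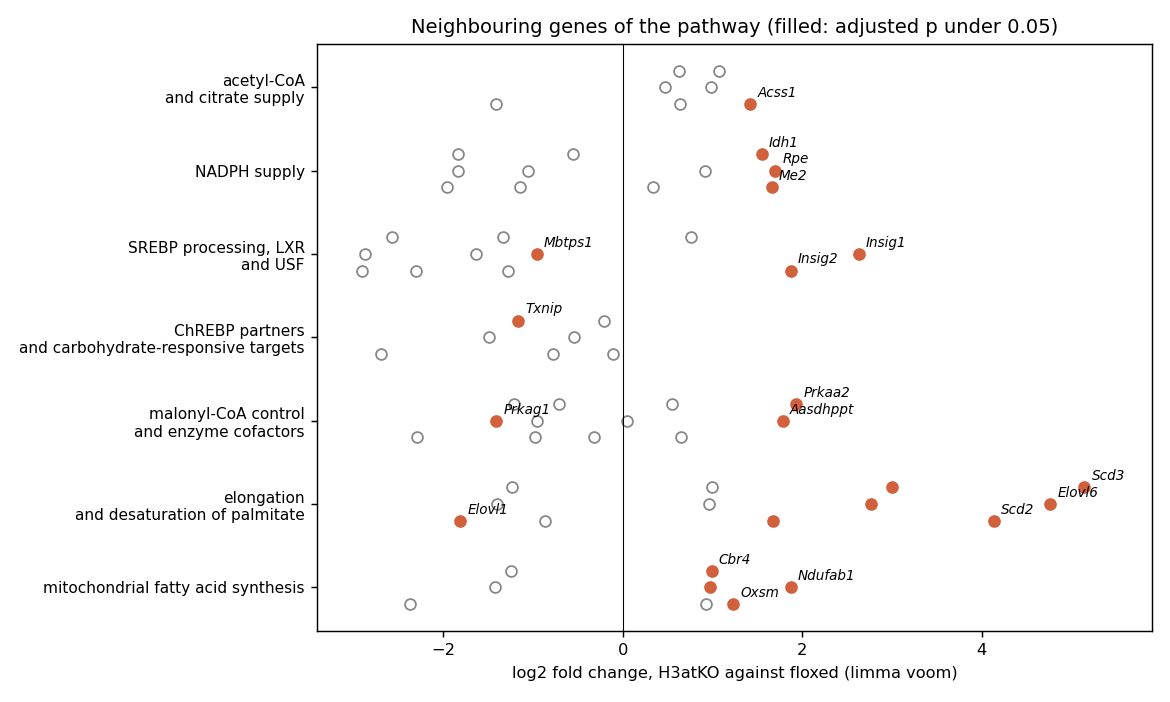
Log2 fold change, H3atKO against floxed (limma voom), of each tested gene of the 7 neighbouring lists, one circle per gene, filled where the adjusted p is under 0.05. The right end is taken by *Elovl6*, *Scd2* and *Scd3* of elongation and desaturation, *Insig1* and *Insig2* are the filled circles right of 0 in the SREBP list, and the 7 genes of the ChREBP list lie left of 0.

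Markers of the cells in the tissue were measured beside these values. Of 10 adipocyte markers 9 had negative log2 fold changes (median -1.53, or -0.60 after the GC correction), from -3.99 for *Cfd* to 0.05 for *Fabp4*, with *Adipoq* at -0.24. Their summed level ranged from 15023 to 38946 cpm in floxed and from 16077 to 27487 cpm in H3atKO samples, and 1 marker was down-regulated (*Cfd*, adjusted p = 0.0223). Of 10 brown adipocyte markers 9 were tested and 4 were upregulated (*Dio2*, *Elovl3*, *Otop1* and *Pank1*), while 8 had positive log2 fold changes. Their sum ranged from 42.5 to 102 cpm in floxed and from 422 to 1262 cpm in H3atKO samples. *Elovl3* was the largest part of it in H3atKO replicates 1 to 3, with 722, 283 and 172 cpm. *Ucp1* overlapped between genotypes and did not pass without the block (log2 fold change 2.33, adjusted p = 0.353, limma). With the replicate block *Ucp1* had a log2 fold change of 2.9 (adjusted p = 0.00536, limma). With the GC correction alone its adjusted p was 0.496, and with the block and the correction together 0.0176. Of 10 hepatocyte markers 8 stayed below 1 cpm in every sample. *Alb* fell from 66.3 ± 42.2 to 0.865 ± 0.512 cpm (SD, n = 3 each, adjusted p = 0.0313 from limma), and *Cyp2e1* rose from 3120 ± 956 to 8909 ± 2959 cpm (adjusted p = 0.0354). Epithelial markers summed to at most 15.5 cpm in any sample. All 10 markers of B and T lymphocytes had positive log2 fold changes, and 1 of them was upregulated (46.8 to 344 cpm in floxed and 86.7 to 572 cpm in H3atKO samples in sum). All 10 markers of skeletal muscle had negative ones, none passing the test, and their sum ranged from 3.35 cpm in H3atKO replicate 3 to 3696 cpm in H3atKO replicate 2. Of the other lists, 3 of 10 macrophage, 5 of 10 endothelial and 1 of 10 stromal markers were down-regulated. Their median log2 fold changes were -1.16, -1.6 and -1.08 in that order, or -0.74, -0.89 and -1 after the GC correction. Beside the counts of each marker list, 9.42% of all tested genes were upregulated and 7.07% down-regulated. The part of cell composition in the lipogenic values was not tested.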

How the data were processed

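RNA-seq counts of 3 floxed and 3 H3atKO samples were analysed. The authors trimmed reads with Cutadapt 1.3, aligned them to GRCm38 with STAR 2.4.2a and deposited htseq-count (HTSeq 0.6.1) counts per Ensembl gene, not normalized, with 5 closing tallies that were left out here. Symbols, positions, exon lengths and GC content came from GENCODE M21 (GRCm38), and *Hsd17b8* was matched as *H2-Ke6* through RefSeq synonyms. Genes at or above 1 cpm in any sample were scaled by TMM (edgeR 4.0.16) and tested with limma 3.58.1 (voom, genotype as the only term) in R 4.3.3, with Benjamini-Hochberg adjustment over all 14967 genes. The members were chosen, and the lists written, with earlier results of these data known. Named were all members, *Hdac3*, in each list up to 3 called genes with the largest change in each direction, and the 5 genes most like *Fasn*. The GC correction subtracted from each sample's voom values a robust loess curve (span 0.3) of its deviation from the gene mean on GC content, and removes any effect of genotype that follows GC content. Replicate numbers come from the labels, which do not say what a shared number marks. They were used as a block because the deviations of same-numbered samples correlated in these same data. Alternatives were edgeR, DESeq2 1.42.0, other scalings and filters, quality weights, the replicate block, the fit without mitochondrial genome genes, and each sample left out. Fits were tested on simulated counts that held no trend on GC content and no replicate effect, so that their handling of these was not tested.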

Additional observations from a re-analysis of the deposited data

How the results depend on the processing

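Over all genes, limma voom called 1410 upregulated and 1058 down-regulated, against 2935 and 3465 with DESeq2, 306 and 5667 with library sizes alone, 4003 and 4440 with sample quality weights, 3717 and 4290 with the replicate block and 807 and 465 after the GC correction. Down-regulated genes numbered 2749 with edgeR and 1864 with at least 10 counts in every sample. Library sizes alone moved the median of all log2 fold changes by -0.85. Among the 10 lipogenic genes 4 were upregulated, or 7 after the GC correction and 8 with the block and the correction. Down-regulated were 1, or 2 with edgeR, DESeq2, library sizes alone, quality weights or the block, and 0 after the GC correction with or without the block. In the wider lists 18 were upregulated, 10 with library sizes alone and 28 with the block. Down-regulated there were 4, against 17 with edgeR, 21 with DESeq2, 2 with RLE factors or no filter, 30 with library sizes alone, 12 with at least 10 counts, 26 with quality weights, 29 with the block and 1 after the GC correction. With each sample left out, these counts ranged from 1 to 2729 and from 0 to 3828 for all genes, from 0 to 5 and from 0 to 2 for the 10 genes, and from 0 to 20 and from 0 to 28 for the wider lists. Calls were fewest when floxed replicate 2 was left out (limma), which left 1926 and 2407 of all genes, 5 and 1 of the 10, and 20 and 13 of the wider lists at an unadjusted p under 0.05. Library sizes alone turned *Acacb* to -0.29 and *Slc25a1* to -0.53, and *Slc25a1* ranged from -0.17 without H3atKO replicate 2 to 0.93 without H3atKO replicate 3. The difference in the *Acaca* to *Acacb* ratio became -0.49 after the GC correction, and that in *Mlxipl* to *Srebf1* -0.24, or -0.29 to 0.53 with a sample left out. The cause of these moves was not tested. The log2 fold changes of the other 8 lipogenic genes kept their direction in every alternative, and the replicate block changed no call of the 10 genes other than those of *Acly*, *Thrsp* and *Srebf1*. Each group has 3 pools, which limits what could be detected.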
